A study of Mus musculus with 30 samples.

Results

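Microglia labelled PD-1 KO that had been given amyloid-beta medium were compared between 8 h and 2 h of exposure. The 6 libraries, 3 at 8 h and 3 at 2 h, were chosen by their condition label from the 30 of the series. The series holds RNA sequencing of primary microglial cultures from mouse brain, which were grown for several days and harvested by shake-off. Cultures labelled wild type (WT) or PD-1 KO were sampled at 0 h and, either untreated or in conditioned medium that contained amyloid-beta, after 2 h and 8 h. Of these, the untreated libraries labelled PD-1 KO at 2 h and 8 h (3 and 3) and the amyloid-beta libraries labelled WT at 2 h and 8 h (3 and 3) serve below as comparisons. Strain, age and the medium of the untreated cultures are not given in the sources used here. The labels do not say whether the 3 libraries of a group came from separate animals or cultures, so p-values measure only the spread between these libraries. All libraries at 0 h and 2 h carry title numbers from 1707 to 1724 and all at 8 h carry numbers from 1784 to 1795, so the time of exposure and the run of title numbers cannot be told apart.

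Microglia are the resident macrophages of the brain and take up amyloid-beta, the peptide of Alzheimer plaques, through scavenger and pattern recognition receptors. Engagement of such receptors releases the transcription factor NF-kB from its inhibitors, and NF-kB then induces cytokines, chemokines and several of those same inhibitors. PD-1, encoded by Pdcd1, is an inhibitory receptor known mainly from T cells, where binding of its ligand PD-L1 dampens activating signals.

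Pdcd1 (chr1:94038305-94052553, GRCm38), the gene named as knocked out, was read first. In units of deposited signal, which are gene counts divided by a size factor per library with a lowest value of 1, it stood at 13.4, 6.02 and 25.3 in the 3 libraries at 2 h (replicates 1 to 3). At 8 h it stood at 17.6, 9.96 and 12. These values rest on 3 to 46 reads per library, and the groups overlapped. The fitted log2 change was -0.00 ± 0.41 (standard error, limma adjusted p = 1). In every library labelled WT the gene lay at 1, the lowest value the file allows. The level therefore goes against the genotype label, the values do not show which part of the gene the reads cover, and the libraries are called by their label throughout.

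Depth was lower at 2 h (4674920 to 9804965 reads per library) than at 8 h (12016664 to 43404845), without overlap, and its part in the results was not tested; 1 of the called genes lay at the lowest value in any of the 6 libraries. The 15 pan-microglial markers had summed signals of 109770 to 132263 at 2 h and 106690 to 120610 at 8 h, and none lay at the lowest value. Markers of other brain cells were also present at both times. The 10 astrocyte markers summed to 14643 to 28029 at 2 h and 15834 to 28826 at 8 h, the 8 oligodendrocyte markers to 5915 to 7045 and 5664 to 6576, the 8 ependymal markers to 2742 to 6605 and 3228 to 6856, and the 7 oligodendrocyte precursor markers to 2864 to 3956 and 2337 to 3226. In each of these lists the ranges at 2 h and 8 h overlapped and 0 members passed the test. In bulk RNA, fewer cells of a type and less RNA per cell cannot be told apart.

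From 2 h to 8 h with amyloid-beta, inflammatory genes such as Il1b, Cxcl2, Nlrp3 and Tnf rose, while regulators such as Stat3, Cebpa, Sesn1 and Cytip fell. Of 13722 genes tested with limma on log2(signal + 1), 234 (1.71%) passed an adjusted p of 0.05, 144 higher (1.05%) and 90 lower (0.656%) at 8 h. Changes of the called genes were mostly modest, with a median log2 change of 0.56 among those that rose and -0.64 among those that fell, beside -0.02 over all genes tested. At 0 h the mean log2 signal of the same label lay above the 2 h mean in 89 of the 144 that rose, and above the 8 h mean in 11. Among the 90 that fell it lay above the 2 h mean in 45 and below the 8 h mean in 5. Changes from 0 h were not tested. The 3 and 3 libraries did not overlap in 231 of the 234, beside 2933 of all 13722 tested (21.4%). The call rests on the same libraries, so this separation is no separate support for it. Lack of overlap was also a condition for the 15 rises and 15 falls named by size. The count of 234 depended on single libraries. It was 129 without 2 h replicate 1, 132 without 2 h replicate 2, 89 without 8 h replicate 1 and 140 without 8 h replicate 3, and 208 and 167 without the other two. It was 2224 (1104 higher and 1120 lower) with array weights and 3 with a minimum fold of 1.5 in the test.

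Of 26 listed cytokines and chemokines, 19 were tested, 6 rose and 0 fell, with a median log2 change of 0.54, beside 1.05% of all genes that rose. Il1b (chr2:129364570-129371139), which encodes the precursor of the inflammasome-processed cytokine interleukin-1 beta, had a signal of 16.3, 20.1 and 37.4 at 2 h and of 123, 112 and 127 at 8 h. Every 8 h library lay above every 2 h library. The mean rose 4.91-fold, from 24.6 ± 11.3 to 121 ± 7.85 (SD, n = 3 each), and the log2 change was 2.34 ± 0.33 (limma adjusted p = 0.000121). Without any 1 of the 6 libraries the log2 change stayed between 2.10 and 2.67, and the call was kept. At 0 h the libraries labelled PD-1 KO had 97.2 to 165, so the 2 h level lay below both.

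Cxcl2 (chr5:90903871-90905938), a chemokine that attracts neutrophils, had a signal of 209, 245 and 461 at 2 h and of 970, 818 and 828 at 8 h. Replicate 3 at 2 h was the highest of its group, yet below all libraries at 8 h. The log2 change was 1.60 ± 0.33 (limma adjusted p = 0.00638). It lost the call without 2 h replicate 1 or without 8 h replicate 1, with adjusted p up to 0.0689. Tnf (chr17:35199381-35202007), the tumour necrosis factor gene, had a signal of 633, 705 and 1052 at 2 h and of 1485, 1210 and 1429 at 8 h, and rose by 0.82 ± 0.15 (limma adjusted p = 0.00176). The groups did not overlap, as the rule for genes chosen by size required, and the call was kept without each library.

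Among the chemokines that recruit monocytes and macrophages, Ccl3 rose by a log2 change of 0.68 ± 0.15, from 1978 ± 218 to 3157 ± 305 (SD, n = 3 each). Ccl9 rose by 0.54 ± 0.12, from 2580 ± 313 to 3729 ± 159. Cxcl16, a membrane-bound chemokine that also binds oxidised lipid, rose by 0.58 ± 0.15, from 1024 ± 188 to 1514 ± 81.1. Their limma adjusted p-values were 0.00993, 0.00913 and 0.032. Unlike Il1b, these genes lost calls as libraries were left out: Ccl3 lost its call without 2 h or 8 h replicate 1 (adjusted p up to 0.102), Ccl9 without 2 h replicate 1 or 2 or 8 h replicate 1 (up to 0.0865), and Cxcl16 without any 1 library except 2 h replicate 3 (up to 0.202). Il1a, the sister gene of Il1b, had a mean of 32.4 ± 8.26 at 2 h and 68.5 ± 12.8 at 8 h and did not pass (log2 change 1.07 ± 0.32, limma adjusted p = 0.094). Ccl7 went the other way in its values, 23.3 ± 5.87 at 2 h and 12.7 ± 5.84 at 8 h, with a log2 change of -0.91 ± 0.52 that did not pass (adjusted p = 0.556). The list's count of 6 was 2 without 2 h replicate 1 or 8 h replicate 1, 4 without 2 h replicate 2, and 5 to 7 without the others.

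**Figure D1:**
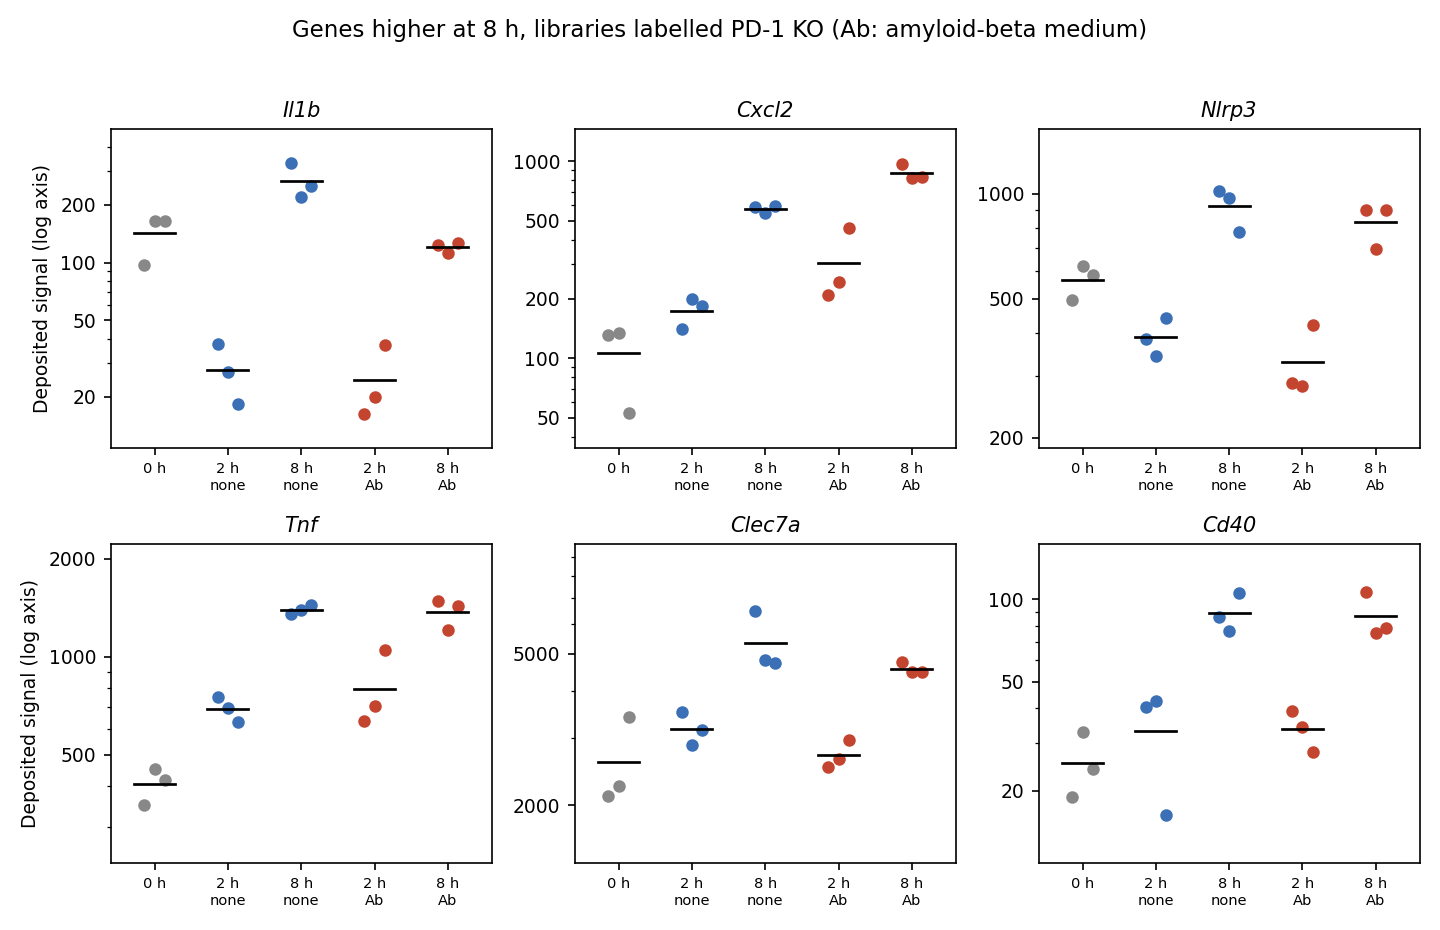
Deposited signal (log axis) of 6 genes that were higher at 8 h, from cultures labelled PD-1 KO at 0 h (grey), without amyloid-beta medium (blue) and with it (red). Each point is 1 library and each bar the mean of 3; in Il1b the 8 h libraries with amyloid-beta sit between 112 and 127 and the 2 h libraries between 16.3 and 37.4.

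The NF-kB list, which holds subunits, inhibitors and feedback genes of this factor, had 20 genes, all tested. Of these 10 rose, 0 fell and the median log2 change was 0.41, beside 1.05% of all genes that rose. Cd40, a costimulatory receptor of the TNF receptor family, had the largest change, with a signal of 39.2, 34.1 and 27.7 at 2 h and of 106, 75.5 and 78.7 at 8 h. The groups did not overlap and the log2 change was 1.33 ± 0.28 (limma adjusted p = 0.00856), but the call was lost without 8 h replicate 1 (adjusted p = 0.0887). Icam1 (chr9:21015985-21028817), an adhesion molecule for leukocyte integrins, had a signal of 631, 554 and 728 at 2 h and of 1098, 895 and 1057 at 8 h. It rose by a log2 change of 0.68 ± 0.11 (limma adjusted p = 0.000763), again without overlap, and was the member of this list whose call was kept without each library in turn.

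Among the 10 were genes of inhibitors and of subunits. Nfkbiz, which encodes the nuclear inhibitor-like cofactor I-kappa-B zeta, rose from 542 ± 140 to 884 ± 84.1 (log2 change 0.73 ± 0.15, limma adjusted p = 0.00499). Tnip3 rose from 573 ± 73.4 to 918 ± 48.4 (0.68 ± 0.15) and Tnip1 from 433 ± 35.0 to 605 ± 57.1 (0.48 ± 0.10), both encoding partners of the deubiquitinating enzyme A20. Nfkbie, encoding the inhibitor I-kappa-B epsilon, rose from 202 ± 53.5 to 308 ± 25.8 (0.64 ± 0.14), and Ikbke, a kinase of the innate immune response, from 760 ± 100 to 1194 ± 76.9 (0.66 ± 0.15). The precursor subunits Nfkb1 (0.37 ± 0.09) and Nfkb2 (0.40 ± 0.10) and the apoptosis inhibitor Birc3 (0.51 ± 0.13) rose by less. Nfkbiz and Tnip3 lost the call without 2 h replicate 2 or 8 h replicate 1 (adjusted p up to 0.0684 and 0.0866). Tnip1 lost it without those 2 or 8 h replicate 3 (up to 0.0904), and Nfkbie, Ikbke, Nfkb1, Nfkb2 and Birc3 lost it also without 2 h replicate 1 (up to 0.127, 0.109, 0.152, 0.193 and 0.24). The list's count of 10 was accordingly 5, 2 and 12 without 2 h replicates 1, 2 and 3, and 1, 10 and 4 without 8 h replicates 1, 2 and 3. The genes Rel, Rela, Relb, Nfkbia, Nfkbib, Nfkbid, Tnfaip3, Bcl3, Traf1 and Cyld did not pass; Nfkbia, which encodes the main inhibitor I-kappa-B alpha, had a log2 change of 0.38 (limma adjusted p = 0.098).

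For Cxcl2, the called member of the cytokine list whose promoter held an NF-kB motif, the 250 bases before its RefSeq start are shown (GRCm38.p6, chr5:90903649-90903898, plus strand), with the motif in capitals 97 bases before the start. The motif was searched on both strands and found in 0.356% of 32851 promoters of the same length, and in the promoters of 1 of the 5 called cytokine genes (Cxcl2) and 1 of the 7 called NF-kB genes (Nfkb2) that could be matched. A match describes letters and is not evidence of binding.
Cxcl2: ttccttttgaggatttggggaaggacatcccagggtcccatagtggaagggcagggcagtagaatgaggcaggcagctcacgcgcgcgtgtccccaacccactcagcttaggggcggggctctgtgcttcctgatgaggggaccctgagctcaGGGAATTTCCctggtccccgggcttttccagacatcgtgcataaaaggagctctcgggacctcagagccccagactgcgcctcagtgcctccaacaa

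Nlrp3, Clec4e, Clec7a and Gpr84 rose. Nlrp3 (chr11:59541568-59566956), the sensor of the inflammasome that cleaves pro-interleukin-1 beta, had a signal of 288, 281 and 420 at 2 h and of 896, 696 and 896 at 8 h. All 8 h libraries were higher than all 2 h libraries, and the log2 change was 1.34 ± 0.14 (limma adjusted p = 1.61e-06). Clec4e, the C-type lectin Mincle, had a signal of 137, 185 and 204 at 2 h and of 433, 434 and 369 at 8 h (log2 change 1.24 ± 0.18, limma adjusted p = 0.000197). Clec7a (chr6:129461591-129472779), the beta-glucan receptor Dectin-1 and a gene that marks disease-associated microglia, had a signal of 2526, 2650 and 2972 at 2 h and of 4764, 4466 and 4481 at 8 h. It rose by 0.75 ± 0.13 (limma adjusted p = 0.00098). Gpr84, a receptor for medium-chain fatty acids, rose from 416 ± 72.4 to 867 ± 81.7 (1.07 ± 0.17, limma adjusted p = 0.000383). In these 4 genes the call was kept without each library in turn. The groups did not overlap, which for Nlrp3, Clec4e and Gpr84 was a condition of their choice by size.

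Further genes among the rises chosen by size were Ets2, Pim1, Il13ra1, Sla, Pla2g4a, Ssh2, Gsap and Rapgef5. Ets2, a transcription factor of macrophages, had the smallest adjusted p of the comparison: its signal was 579, 604 and 729 at 2 h and 1448, 1216 and 1353 at 8 h, a log2 change of 1.07 ± 0.10 (limma adjusted p = 9.64e-07). In the libraries labelled PD-1 KO at 0 h Ets2 had a mean of 1589, beside 1339 at 8 h with amyloid-beta. Pim1, a survival kinase, rose by 1.02 ± 0.16. Il13ra1, a receptor chain for interleukin-4 and interleukin-13, rose by 0.90 ± 0.15, and Sla, an adaptor that dampens receptor signalling, by 0.90 ± 0.12. Pla2g4a, the cytosolic phospholipase that frees arachidonic acid for prostaglandins, had a signal of 622, 642 and 694 at 2 h and of 1302, 1117 and 1163 at 8 h and rose by 0.87 ± 0.10 (limma adjusted p = 1.41e-05). Ptgs2, the inducible cyclooxygenase that uses this arachidonic acid, had 59.3 ± 16.6 at 2 h and 104 ± 14.6 at 8 h and did not pass (0.83 ± 0.42, limma adjusted p = 0.471). Pla2g4a was the 1 member of 11 prostaglandin and leukotriene genes that rose, beside 1.05% of all genes. Ssh2, a phosphatase that activates cofilin, rose by 0.84 ± 0.15 and Gsap by 0.77 ± 0.10. Rapgef5 rose by 0.89 ± 0.22 and lost its call without any 1 library except 2 h replicate 3 (adjusted p up to 0.133), whereas the other genes of this paragraph that rose kept theirs without each library.

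The anti-apoptotic genes Bcl2a1d and Bcl2a1b rose, with the reservation that the copies are nearly identical and the authors' counting could have split reads between them. Bcl2a1d had a signal of 242, 203 and 211 at 2 h and of 512, 460 and 445 at 8 h (log2 change 1.11 ± 0.14, limma adjusted p = 2.4e-05). Bcl2a1b, the more abundant copy, rose from 1148 ± 101 to 2026 ± 163 (0.82 ± 0.13, adjusted p = 0.000383).

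A further 3 genes of large change lay below the abundance at which genes were chosen by rule, and were picked after their values were seen. Irg1, which encodes the enzyme that makes itaconate, had the largest rise of the 144: its signal was 33.5, 40.2 and 33.8 at 2 h and 205, 213 and 196 at 8 h (log2 change 2.49 ± 0.31, limma adjusted p = 2.4e-05). Cd69, an early activation marker of leukocytes, rose from 27.9 ± 10.6 to 118 ± 19 (2.11 ± 0.41, adjusted p = 0.00434) and narrowly lost its call without 2 h replicate 2 (adjusted p = 0.0518). Hcar2, a receptor for niacin and ketone bodies, rose from 22.5 ± 8.67 to 72.4 ± 5.36 (1.71 ± 0.31, adjusted p = 0.00173). In all 3 the groups did not overlap.

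Another 8 called genes were also picked after their values were seen. Tlr2, a Toll-like receptor that can bind amyloid fibrils, had a signal of 632, 516 and 706 at 2 h and of 1020, 952 and 1045 at 8 h, and rose by 0.71 ± 0.10 (limma adjusted p = 0.000121). Irak2, a relay gene of Toll-like receptors (0.53 ± 0.10), and Ticam2, an adaptor of Toll-like receptor 4 (0.65 ± 0.11), rose as well. So did Casp4, the caspase that senses intracellular lipopolysaccharide (0.69 ± 0.13). Icosl, a costimulatory ligand, rose from 91.0 ± 18.8 to 204 ± 8.58 (1.17 ± 0.21). The calls of these 5 genes were kept without each library. Cd83, an activation marker of antigen-presenting cells, rose by 0.60 ± 0.13, Cybb, the catalytic subunit of the phagocyte NADPH oxidase, by 0.62 ± 0.15 and Sqstm1, the autophagy receptor p62, by 0.49 ± 0.12. They lost their calls without 2 h replicate 1, 2 h replicate 2 or 8 h replicate 1, Cybb also without 8 h replicate 2 or 3 and Sqstm1 also without 8 h replicate 3 (adjusted p up to 0.11, 0.143 and 0.178).

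Stat3, Cebpa and Sox4, which encode transcription factors, fell. Stat3 (chr11:100885098-100939540), the factor activated by interleukin-6 and interleukin-10 family cytokines, had a signal of 2328, 2212 and 2215 at 2 h and of 1386, 1384 and 1411 at 8 h. The 2 groups lay far apart relative to their spread, and the log2 change was -0.69 ± 0.09 (limma adjusted p = 2.4e-05). Cebpa (chr7:35119293-35121928), a factor needed for the myeloid lineage, had 2028, 1751 and 2358 at 2 h and 1206, 1077 and 1322 at 8 h (-0.76 ± 0.13, limma adjusted p = 0.000653). Sox4 fell from 1184 ± 86.3 to 677 ± 45.1 (-0.81 ± 0.12, adjusted p = 0.000383).

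**Figure D2:**
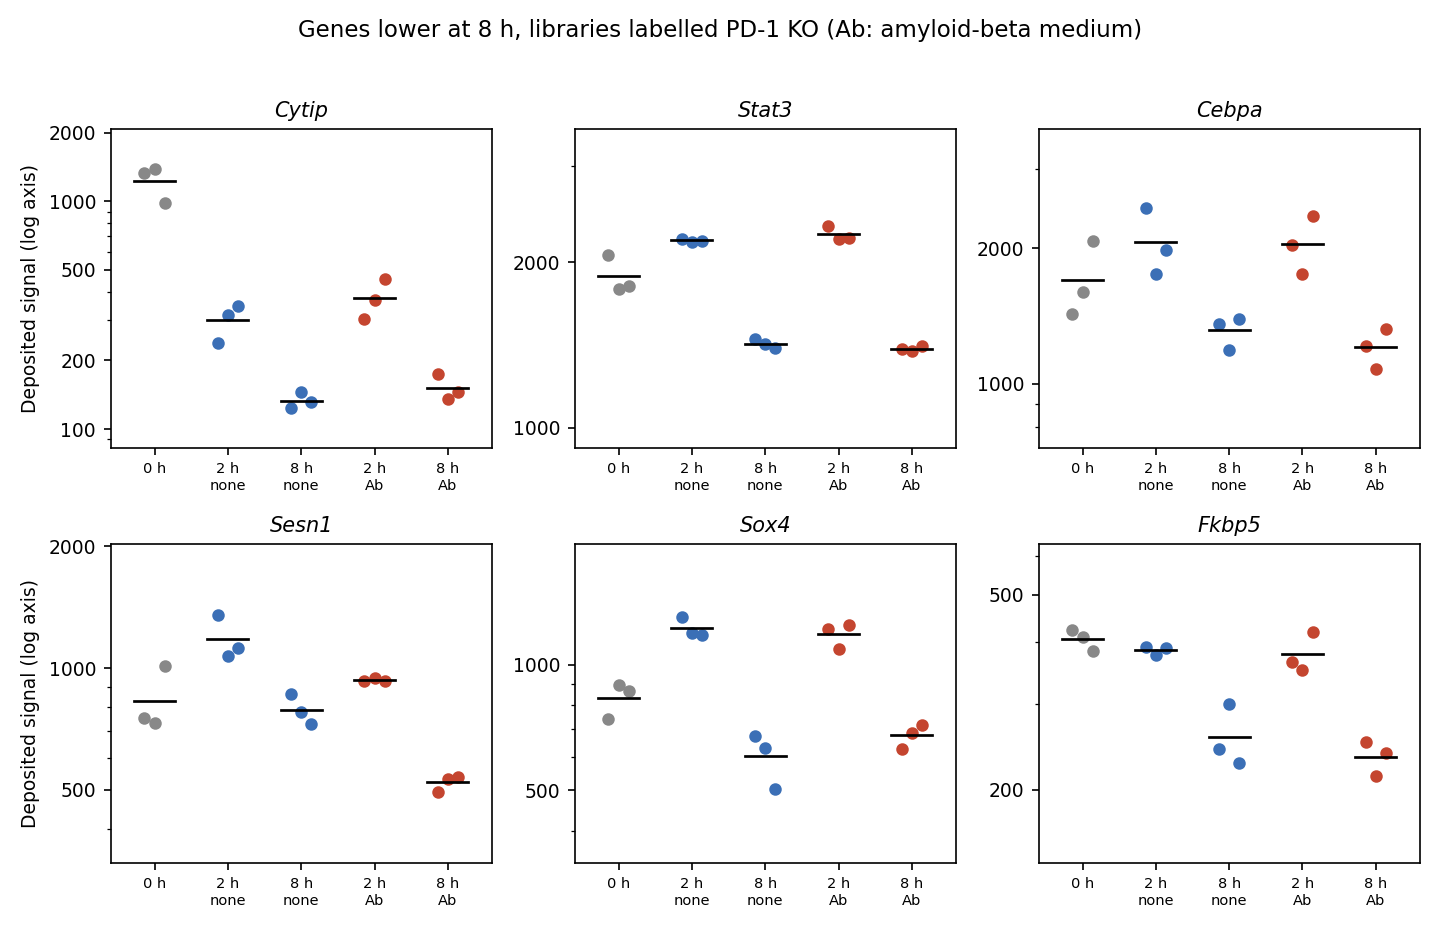
Deposited signal (log axis) of 6 genes that were lower at 8 h, from cultures labelled PD-1 KO at 0 h (grey), without amyloid-beta medium (blue) and with it (red). Points are libraries and bars means of 3; in Stat3 the libraries with amyloid-beta sit at 2212 to 2328 at 2 h and at 1384 to 1411 at 8 h.

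Cytip, which encodes a cytohesin-binding regulator of leukocyte adhesion, fell most among the 15 falls chosen by size. Its signal was 305, 369 and 457 at 2 h and 174, 136 and 146 at 8 h (log2 change -1.29 ± 0.21, limma adjusted p = 0.000551). The lack of overlap was a condition of its choice. Sesn1, a stress-induced inhibitor of mTORC1 and target of p53, had 930, 946 and 928 at 2 h and 495, 532 and 539 at 8 h (-0.84 ± 0.14, limma adjusted p = 0.000554). It was the 1 of 10 p53 targets that passed, beside 1.71% of all genes. Fkbp5, a glucocorticoid-induced co-chaperone, fell from 378 ± 35.7 to 233 ± 19 (-0.69 ± 0.12, adjusted p = 0.000673), whereas Sgk1, another gene of the glucocorticoid list, rose from 981 ± 29.2 to 1232 ± 56.0 (0.33 ± 0.07, adjusted p = 0.00878). Those 2 of the list's 8 genes, beside 1.71% of all genes called, thus moved in opposite directions. Sgk1 lost its call without 2 h or 8 h replicate 1 (limma adjusted p up to 0.0947).

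Rab7b, Dab2, Rab3il1, Slco2b1, Sipa1l2, Rnf144b and Eepd1 fell. Rab7b, a small GTPase of late endosomes, had a signal of 3856, 3939 and 4785 at 2 h and of 2625, 2298 and 2819 at 8 h (log2 change -0.70 ± 0.11, limma adjusted p = 0.000526). Dab2, an adaptor of clathrin-coated endocytosis, fell from 6926 ± 470 to 4272 ± 541 (-0.70 ± 0.13), Rab3il1, an exchange factor for Rab GTPases, from 698 ± 28.9 to 377 ± 45.9 (-0.89 ± 0.17), and Slco2b1, an organic anion transporter, from 858 ± 64.4 to 484 ± 56.6 (-0.83 ± 0.14). Sipa1l2 (-0.73 ± 0.10), Rnf144b (-0.73 ± 0.10) and Eepd1 (-0.71 ± 0.12) fell by similar amounts. All 7 genes were chosen by size among those whose groups did not overlap, and the call was kept without each library. Chl1, a neural cell adhesion molecule, fell from 547 ± 119 to 231 ± 26.7 (-1.22 ± 0.30, limma adjusted p = 0.0279) and Hist1h1c, a linker histone gene, from 653 ± 160 to 381 ± 8.41 (-0.75 ± 0.18, adjusted p = 0.0203). Each of them lost its call without any 1 library but one, 2 h replicate 3 for Chl1 and 2 h replicate 2 for Hist1h1c (adjusted p up to 0.171 and 0.154).

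Bambi, a decoy receptor of the TGF-beta family, fell from 258 ± 11.4 to 130 ± 18.4 (log2 change -0.99 ± 0.14, limma adjusted p = 0.000158), and the transducer Smad3 from 488 ± 57.2 to 349 ± 15.4 (-0.48 ± 0.11, adjusted p = 0.0174). Tgfbr1, a TGF-beta receptor chain, rose from 1959 ± 112 to 2771 ± 167 (0.50 ± 0.11, adjusted p = 0.0165). Bambi and Smad3 were picked after their values were seen. Smad3 lost its call without 2 h replicate 2 or 8 h replicate 1 (adjusted p up to 0.143), and Tgfbr1 without those or 8 h replicate 3 (up to 0.0997). Adam8, a metalloprotease of myeloid cells, fell from 21399 ± 3020 to 15231 ± 1950 (-0.49 ± 0.11) and Calr, the chaperone calreticulin, from 5380 ± 10.9 to 4133 ± 288 (-0.38 ± 0.10), both also picked afterwards. Adam8 lost its call without 2 h replicate 1 or 3 or 8 h replicate 2 (up to 0.147), and Calr without any 1 library except 8 h replicate 2 (up to 0.178).

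Immediate early genes, which are transcribed within minutes of a stimulus, were mixed. Of 27 tested, 4 rose and 1 fell, with a median log2 change of 0.11, beside 1.05% of all genes that rose and 0.656% that fell. Fos had a signal of 950, 998 and 1239 at 2 h and of 1742, 1474 and 1851 at 8 h (0.67 ± 0.15, limma adjusted p = 0.0161). Egr1 rose by 0.44 ± 0.11, Dusp1, a phosphatase of MAP kinases, by 0.66 ± 0.16 and the antiproliferative gene Btg2 by 0.56 ± 0.15. Dusp1 had a signal of 431, 367 and 608 at 2 h and of 792, 606 and 795 at 8 h, so that 1 library of each time overlapped. Egr2 fell from 178 ± 36.7 to 108 ± 4.90 (-0.69 ± 0.18, adjusted p = 0.045). Fosb had 36.4, 24.1 and 73.6 at 2 h and 12.8, 14.1 and 19.1 at 8 h, and did not pass (-1.35 ± 0.53, adjusted p = 0.272). All 5 calls were fragile: the counts of rises and falls were 0 and 1 without 2 h replicate 1, 0 and 0 without 2 h replicate 2, 8 h replicate 1 or 8 h replicate 3, 3 and 0 without 2 h replicate 3, and 2 and 0 without 8 h replicate 2.

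For the 2 of the called immediate early genes whose promoter held a cyclic AMP response element, TGACGTCA, the 250 bases before the RefSeq start are shown with the element in capitals, 143 bases before the start of Dusp1 (GRCm38.p6, chr17:26508473-26508722, minus strand) and 166 bases before that of Btg2 (chr1:134079156-134079405, minus strand). The element was searched on both strands and lay in 1.55% of 32851 promoters, and in 2 of the 4 called immediate early genes that could be matched. The AP-1 motif TGANTCA lay in 6.75% of promoters and in 0 of those 4.
Dusp1: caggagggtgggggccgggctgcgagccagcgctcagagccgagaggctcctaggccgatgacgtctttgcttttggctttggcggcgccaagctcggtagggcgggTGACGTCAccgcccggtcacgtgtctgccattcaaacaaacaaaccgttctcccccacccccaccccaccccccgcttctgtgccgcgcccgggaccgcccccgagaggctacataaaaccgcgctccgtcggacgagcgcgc
Btg2: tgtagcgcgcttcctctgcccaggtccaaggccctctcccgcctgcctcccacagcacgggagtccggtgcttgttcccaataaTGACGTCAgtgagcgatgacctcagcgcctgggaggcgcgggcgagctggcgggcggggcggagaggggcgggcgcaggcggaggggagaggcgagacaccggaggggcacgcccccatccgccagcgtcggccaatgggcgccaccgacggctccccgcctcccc

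Interferon-induced genes held 1 call from 2 h to 8 h in these libraries. Of 30 tested, 1 rose and 0 fell, with a median log2 change of -0.07; this is near the 1.05% of all genes that rose. The 1 that rose was Rsad2 (chr12:26442746-26456452), which encodes the antiviral protein viperin. Its signal was 48.8, 48.2 and 30.2 at 2 h and 189, 116 and 144 at 8 h, without overlap (1.80 ± 0.40, limma adjusted p = 0.0129). The call was lost without 2 h replicate 3 or 8 h replicate 1 (adjusted p up to 0.114). Ifit1 had 36.4, 30.1 and 37.4 at 2 h and 96.3, 78.6 and 66.3 at 8 h, and did not pass (1.18 ± 0.39, adjusted p = 0.15). Mx1 had 9.57, 4.02 and 20.5 at 2 h and 29.7, 14.7 and 26.6 at 8 h (1.18 ± 0.41, adjusted p = 0.188) and passed in the fit without 2 h replicate 3 (adjusted p = 0.0289). The list's counts of rises and falls were 1 and 2 without 2 h replicate 3, 1 and 1 without 8 h replicate 2 and 0 and 0 without 8 h replicate 1.

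The promoter of Rsad2 held the core of the interferon-stimulated response element on the opposite strand, 120 bases before the RefSeq start (GRCm38.p6, chr12:26456453-26456702, minus strand; the element in capitals). The core, searched on both strands, lay in 2.98% of 32851 promoters of the same length.
Rsad2: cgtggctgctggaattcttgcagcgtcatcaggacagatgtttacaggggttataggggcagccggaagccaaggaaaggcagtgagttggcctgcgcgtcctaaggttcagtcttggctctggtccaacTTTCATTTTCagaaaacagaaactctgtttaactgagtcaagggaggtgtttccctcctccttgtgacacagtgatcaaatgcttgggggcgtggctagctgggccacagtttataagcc

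In the lists that follow, calls are to be read beside the 1.71% of all genes called. Of 16 homeostatic microglia genes tested 1 rose (Tgfbr1) and 1 fell, with a median log2 change of -0.13. P2ry12, the purinergic receptor of resting microglia, had 86.7 ± 11.8 at 2 h and 91.5 ± 4.72 at 8 h (0.08 ± 0.20), Tmem119 44.9 ± 11.1 and 36.1 ± 5.75 (-0.29 ± 0.26), and Cx3cr1, the fractalkine receptor, 1202 ± 26.9 and 1112 ± 90.9 (-0.11 ± 0.19). None of these 3 passed, with limma adjusted p of 0.945, 0.797 and 0.919. Of 19 genes of disease-associated microglia, Clec7a rose and 0 fell, with a median of -0.02. Trem2, the lipid receptor that binds amyloid and apolipoproteins, had 10657, 10294 and 12458 at 2 h and 10836, 9266 and 10859 at 8 h (-0.11 ± 0.15, adjusted p = 0.892), and Apoe 86334 ± 4550 and 82767 ± 2940 (-0.06 ± 0.18, adjusted p = 0.959). In both genes the groups overlapped.

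Calls in the uptake and degradation lists were near the 1.71% over all genes. Of 31 phagocytic receptors and uptake genes, 1 rose (Clec7a) and 0 fell (median log2 change -0.05). Of 29 lysosomal genes 0 rose and 1 fell (median -0.02): Tfeb, the transcription factor of lysosome biogenesis, fell from 456 ± 25.5 to 342 ± 21.5 (-0.41 ± 0.11, limma adjusted p = 0.0387), and lost its call without any 1 of the 6 libraries (up to 0.178). Of 17 genes that process or degrade amyloid-beta and its precursor, 0 passed (median -0.01). Among 7 checkpoint genes 1 fell, 4632428N05Rik, the gene also called Vsir that encodes the inhibitory receptor VISTA. Its signal was 3339, 3176 and 3792 at 2 h and 2406, 2084 and 2534 at 8 h (-0.55 ± 0.11, limma adjusted p = 0.006), and the call was lost without 8 h replicate 2 (adjusted p = 0.0524). Cd274, which encodes the PD-1 ligand PD-L1, had 577 ± 49.7 and 634 ± 55.0 and did not pass (0.14 ± 0.13, adjusted p = 0.806).

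The stress and metabolic lists had 0 to 2 calls each, beside 1.71% of all genes. Of 18 NRF2 target and glutathione genes 1 rose and 1 fell (median log2 change 0.00). Sod2, the mitochondrial superoxide dismutase and also a target of NF-kB, had a signal of 1266, 1229 and 1412 at 2 h and of 1715, 1709 and 1720 at 8 h (0.40 ± 0.08, limma adjusted p = 0.00382). Hmox1, heme oxygenase 1, had 27760, 31738 and 32592 at 2 h and 21181, 20550 and 19966 at 8 h (-0.57 ± 0.15, adjusted p = 0.0387). The groups did not overlap in either gene, but the call of Hmox1 was lost without any 1 of the 6 libraries (up to 0.143). Ero1l, an oxidase of the endoplasmic reticulum that is induced by hypoxia, rose from 844 ± 60.6 to 1298 ± 123 (0.62 ± 0.13, adjusted p = 0.00839) as 1 of 11 hypoxia genes outside glycolysis, and lost its call without 2 h or 8 h replicate 1 (up to 0.0896).

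Asns, asparagine synthetase, was the 1 of 19 genes of the integrated stress response that rose (0.41 ± 0.10, limma adjusted p = 0.028), and Gars (0.37 ± 0.09, adjusted p = 0.0252) and Lars (0.26 ± 0.07, adjusted p = 0.045) were the 2 of 18 transfer RNA synthetases that rose. Asns and Lars lost the call without 2 h replicate 1 or 2 or 8 h replicate 1 or 3, and Gars also without 8 h replicate 2 (adjusted p up to 0.175, 0.32 and 0.136). The lists of heat shock (12 genes), glycolysis (17), cholesterol synthesis (23), LXR targets (14), MHC presentation (17), cytokine feedback (8), chemotactic receptors (14), ribosomal proteins (96), oxidative phosphorylation (79) and the proteasome (38) had 0 calls, with medians from -0.15 to 0.00. Of the 79 oxidative phosphorylation genes 70 had a log2 change below 0, with a median of -0.11, beside 53.8% of all genes. Of the 96 genes in the ribosomal protein list 69 did, with a median of -0.06. That list was matched by gene name and also holds Rps6k kinase genes and Rps19bp1, which encode no ribosomal protein. Mcm6, a subunit of the replication helicase, was the 1 of 29 cell cycle genes that passed and fell from 177 ± 6.04 to 123 ± 3.42 (-0.52 ± 0.14, adjusted p = 0.0442), and lost its call without any 1 library (up to 0.191). Dbp, a clock-controlled transcription factor, was the 1 of 16 clock genes that passed, with 213, 237 and 199 at 2 h and 108, 136 and 118 at 8 h (-0.84 ± 0.16, adjusted p = 0.00393). Among 7 fibroblast and 4 endothelial markers 0 passed, with medians of -0.35 and 0.08. The neuronal gene Rbfox3 fell, from 13.4, 18.1 and 15.7 to 4.01, 2.81 and 4.12 (-1.85 ± 0.47, adjusted p = 0.0384), as 1 of 9 neuron markers, and this call was lost without any 1 library (up to 0.141).

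**Figure D3:**
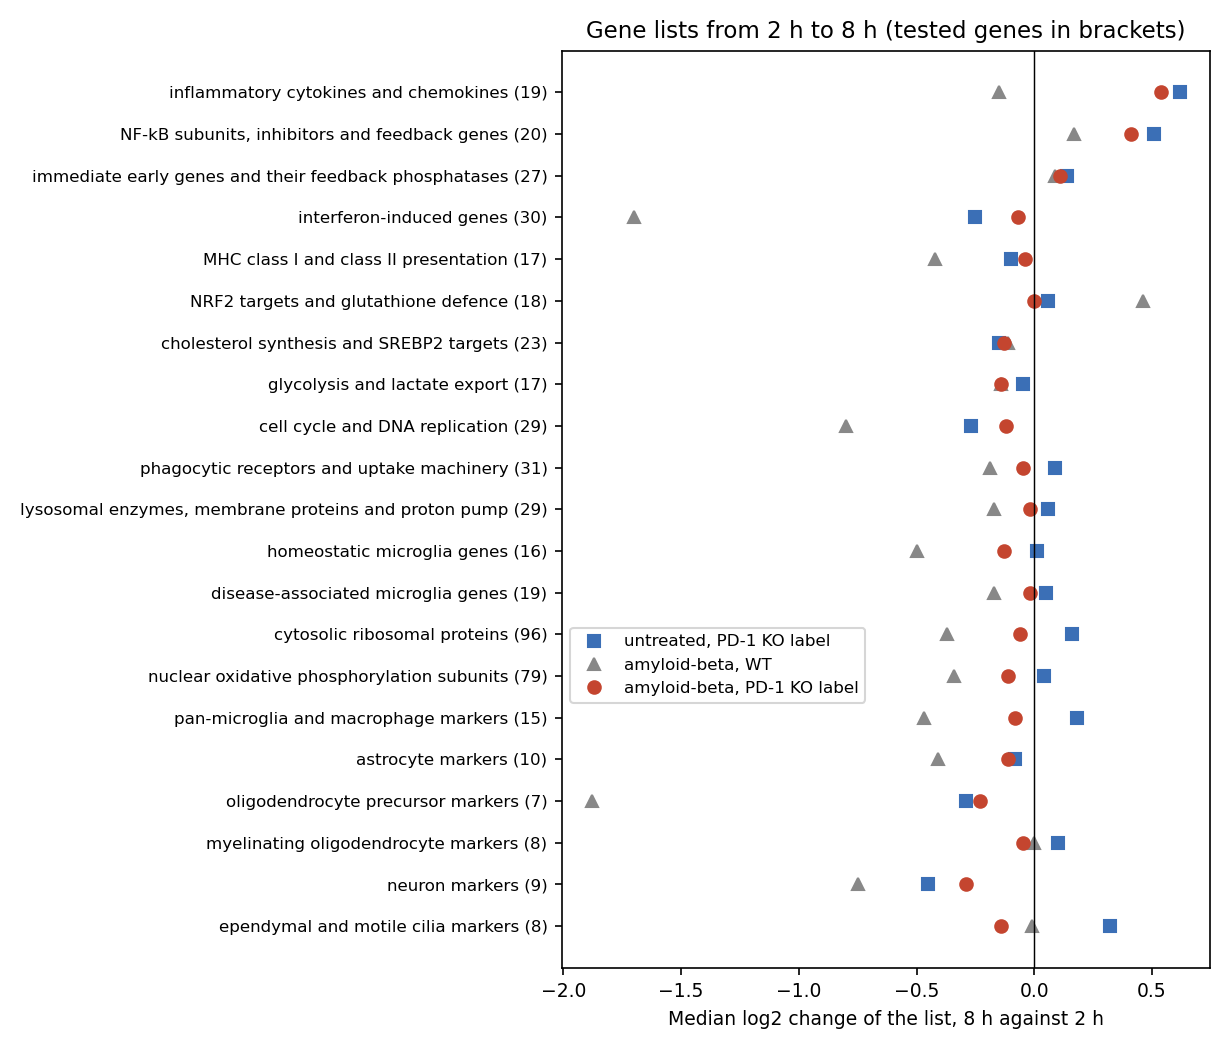
Median log2 change from 2 h to 8 h of 21 gene lists in libraries labelled PD-1 KO with amyloid-beta (red circles) and without it (blue squares), and in libraries labelled WT with amyloid-beta (grey triangles). The NF-kB list sits at 0.41, 0.51 and 0.17 and the interferon list at -0.07, -0.25 and -1.70 in that order.

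To see how far the change depended on amyloid-beta medium, it was set beside the change over the same times in untreated libraries labelled PD-1 KO, which share no library with it. There 270 genes passed (1.97%), 141 higher (1.03%) and 129 lower (0.94%) at 8 h. The count was 178 and 148 without untreated 2 h replicates 1 and 3, 167 without untreated 8 h replicate 1, and 854 with array weights. Of the 234 genes called with amyloid-beta, 233 had the same sign without it, beside 61.0% of all genes tested. The exception, Bre, was singled out after its values were seen and had a log2 change of -0.42 with amyloid-beta and 0.02 without. A total of 134 genes were called in the same direction in both, 57.3% of the calls with amyloid-beta and 49.6% of those without. Genes that rose with amyloid-beta had a median log2 change of 0.54 without it, and genes that fell had -0.55.

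The NF-kB and cytokine lists held rises in the untreated libraries too. The NF-kB list had 12 rises and a median of 0.51 there, and the cytokine list 7 rises and a median of 0.62. Over all genes 1.03% rose there. Some lists without calls leaned in opposite directions. In the oxidative phosphorylation list 53 of 79 genes lay above 0 untreated, beside 9 with amyloid-beta. In the ribosomal protein list 86 of 96 did, beside 27. Ependymal markers had medians of 0.32 untreated and -0.14 with amyloid-beta, and pan-microglial markers 0.18 and -0.08. Il1b rose by 3.25 ± 0.33 without amyloid-beta (means 27.7 at 2 h and 266 at 8 h), beside 2.34 ± 0.33 with it. The difference between the 2 changes was -0.92, with a 95% interval from -1.88 to 0.04 (limma adjusted p = 1). Irg1 rose by 3.24 without amyloid-beta (means 27.5 and 270), beside 2.49 with it, and this difference of -0.76 had an interval from -1.65 to 0.14. Nlrp3 (1.24 without, 1.34 with), Cxcl2 (1.72 and 1.60), Tnf (1.01 and 0.82) and Stat3 (-0.62 and -0.69) had differences of 0.10, -0.13, -0.19 and -0.07, with intervals of -0.30 to 0.50, -1.08 to 0.82, -0.62 to 0.23 and -0.32 to 0.18. Pla2g4a rose by 0.56 without amyloid-beta and 0.87 with it. Its difference of 0.31 had an interval above 0, from 0.01 to 0.60, but did not pass after adjustment over all genes.

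Tested over all genes, the difference between the change with and without amyloid-beta passed for 0 genes with limma (0.0%). At an unadjusted p under 0.05 there were 337, where 686.1 would be the number at that level with no difference in any gene. The count was 0 as well with voom on the recovered reads and with array weights. Among the 234 genes the difference ran from -0.92 to 0.65 on the log2 scale, and the 95% interval of a gene reached 0.36 to either side at the median. For 26 of the 234 (11.1%) the unadjusted limma p of the difference was under 0.05. The 234 were selected on a change that forms part of this difference. A p that misses the threshold does not show that the changes were equal.

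**Figure D4:**
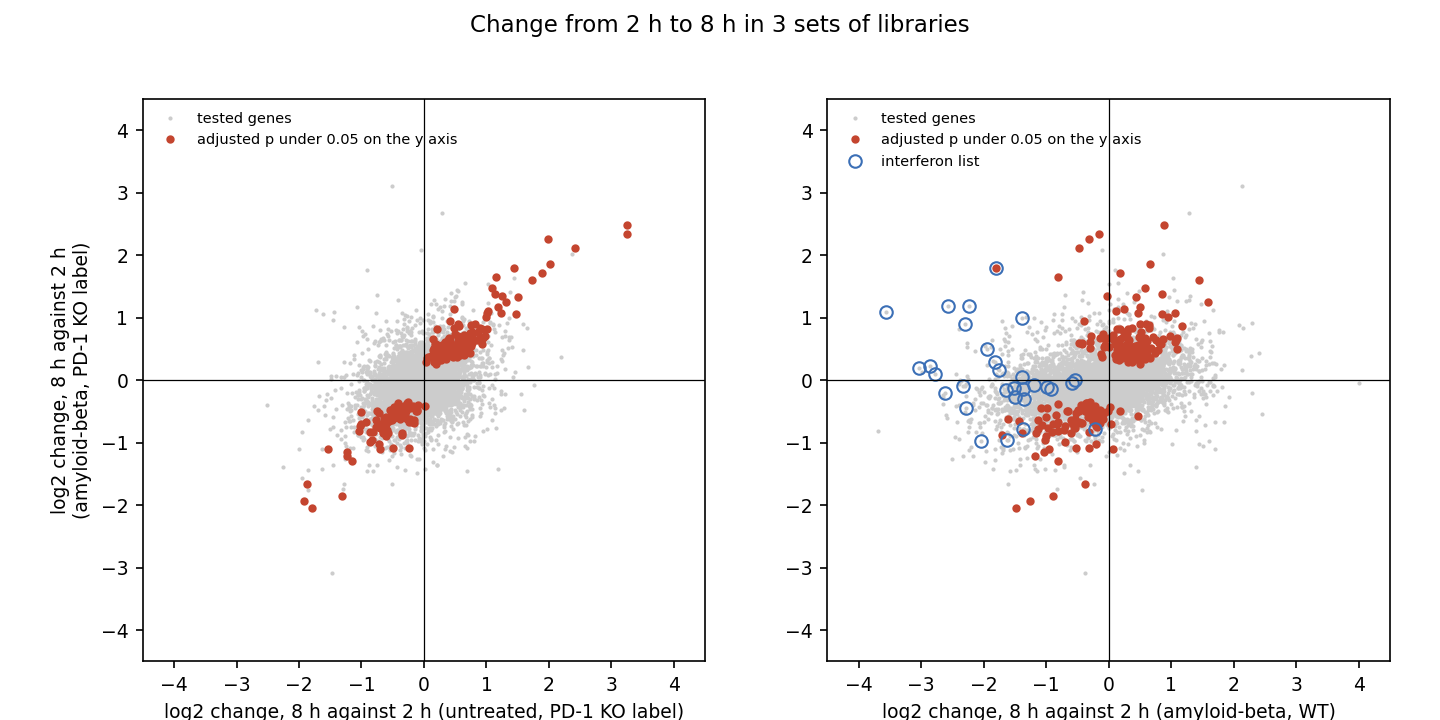
Log2 change from 2 h to 8 h with amyloid-beta in libraries labelled PD-1 KO (y axis) against the change in untreated libraries of the same label (left, x axis) and in amyloid-beta libraries labelled WT (right, x axis). Each point is 1 of 13722 genes; red marks the 234 with adjusted p under 0.05 on the y axis, of which 233 have the same sign on the left and 209 on the right, and blue circles on the right mark the interferon list.

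The same interval with amyloid-beta was then compared with libraries labelled WT, in which 3393 genes passed (24.7%), 1499 higher (10.9%) and 1894 lower (13.8%). The WT count was 1930 without WT 2 h replicate 1, 2091 without WT 8 h replicate 2, 5430 with array weights, and 1046 (324 higher and 722 lower) with only these 2 groups in the fit. Of the 234 genes, 209 had the same sign in WT, beside 66.9% of all genes tested. In WT 144 of them were called in the same direction, 61.5% of the 234 and 4.24% of the WT calls, and 6 in the opposite direction. Genes that rose had a median log2 change of 0.38 in WT and genes that fell one of -0.48. Clec4e rose by 1.24 ± 0.18 under the PD-1 KO label and by 1.59 ± 0.18 in WT, a difference of -0.35 with a 95% interval from -0.88 to 0.18. Cxcl2 rose by 1.60 and 1.44 (difference 0.15, interval -0.80 to 1.10), Pim1 by 1.02 and 0.95 (0.07, -0.41 to 0.55), and Sox4 fell by 0.81 under each label (0.00, -0.36 to 0.36). None of these 4 differences passed.

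The test of the difference between the PD-1 KO label and WT passed for 207 genes (1.51%), 183 with the higher change under the PD-1 KO label (1.33%) and 24 with the lower one (0.175%). Leaving out 1 library gave 102 without PD-1 KO label 2 h replicate 2, 128 and 111 without PD-1 KO label 8 h replicates 2 and 3, and 126 without WT 8 h replicate 2. Il1b was among them: it rose by 2.34 in libraries labelled PD-1 KO and had a log2 change of -0.15 in WT (22.6 ± 2.35 at 2 h and 20.3 ± 2.62 at 8 h), a difference of 2.49 ± 0.47 (limma adjusted p = 0.00388). Nlrp3 had 338 ± 23.4 and 331 ± 36.1 in WT, and its change differed by 1.38 ± 0.20 (adjusted p = 0.000307). Tlr2 and Cd83 fell in WT, by 0.29 and 0.48, and differed by 1.0 and 1.08. The differences of Il1b, Nlrp3, Tlr2 and Cd83 were called without each of the 12 libraries in turn. These WT values are from amyloid-beta medium. In untreated WT libraries Il1b had 12.8 to 30.6 at 2 h and 55.7 to 73.1 at 8 h. Nlrp3 had 288 to 346 and 389 to 430 there. The untreated WT change was not tested. The NF-kB list had 3 members with a higher change under the PD-1 KO label (Nfkbiz, Icam1 and Nfkb1), a count of 0 without PD-1 KO label 2 h replicate 2, 8 h replicate 1 or 8 h replicate 3 or any 1 WT 8 h library, of 1 or 2 without PD-1 KO label 2 h replicate 1 or any 1 WT 2 h library, and of 5 without PD-1 KO label 2 h replicate 3, and the cytokine list had 5 (Il1b, Ccl3, Ccl4, Ccl9 and Cxcl16). The count of 5 was 3 without any 1 library except PD-1 KO label 2 h replicate 3 (6) and WT 2 h replicates 1 and 2 (4 each). Ccl3 and Ccl9 lost this call without 11 and 10 of the 12 libraries (adjusted p up to 0.102 and 0.127).

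Of the lists, the interferon list held the most genes that differed. In WT with amyloid-beta medium 29 of its 30 genes fell from 2 h to 8 h, beside 13.8% of all genes. The list's median log2 change was -1.70 there, whereas under the PD-1 KO label it was -0.07. The difference passed for 22 of the 30, all higher under the PD-1 KO label, beside 1.33% of all genes. Its median was 1.66 in the list, beside 0.01 over all genes tested. Ifit3 had 187, 199 and 152 at 2 h and 211, 234 and 171 at 8 h under the PD-1 KO label, and in WT 395 to 661 at 2 h and 56.2 to 69.9 at 8 h. The WT libraries at 2 h were the highest of these 4 groups and those at 8 h the lowest. Ifit3 differed by 3.23 (limma adjusted p = 0.000185), Mx1 by 3.75 ± 0.58, Rsad2 by 3.60 ± 0.57 and Oasl2 by 1.84 ± 0.34. Oasl2 had 1030 to 1440 in WT at 2 h, 222 to 288 in WT at 8 h, and 113 to 213 over the 6 libraries labelled PD-1 KO. These WT values are from amyloid-beta medium. In untreated WT libraries Ifit3 had 170 to 288 at 2 h and 178 to 495 at 8 h. Rsad2 had 98.9 to 173 and 186 to 347 there, and Oasl2 563 to 853 and 398 to 749. The untreated WT change of the list was not tested. The list's count of 22 stayed between 18 and 23 when each of the 12 libraries was left out.

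**Figure D5:**
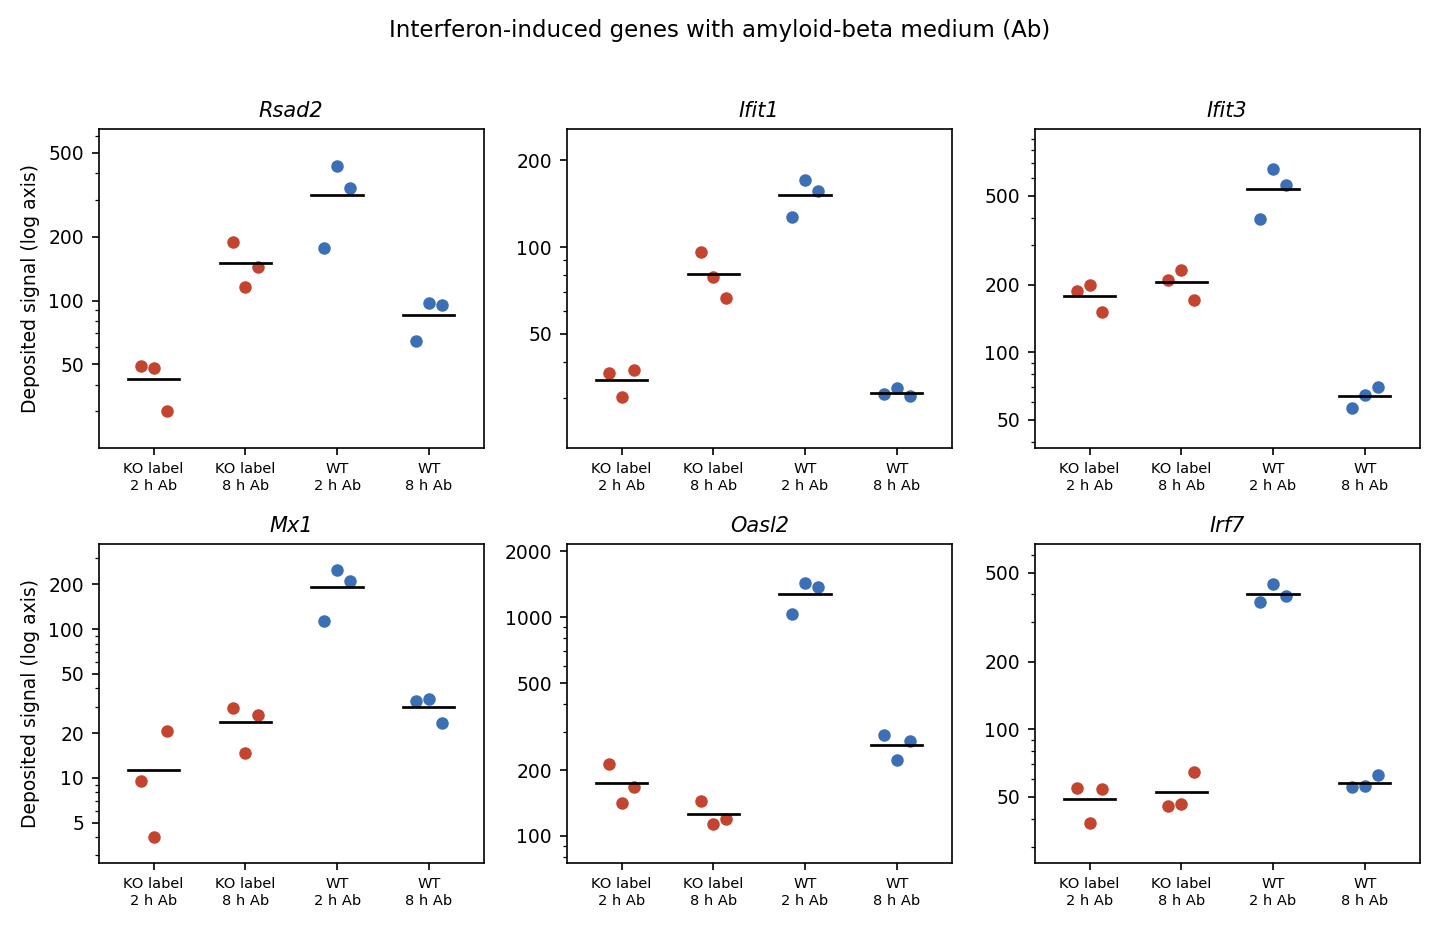
Deposited signal (log axis) of 6 interferon-induced genes with amyloid-beta medium, in libraries labelled PD-1 KO (red) and WT (blue) at 2 h and 8 h; points are libraries and bars means of 3. In Ifit3 the WT libraries fall from 395 to 661 at 2 h to 56.2 to 69.9 at 8 h, while the libraries labelled PD-1 KO stay between 152 and 234.

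A few genes had the lower change under the PD-1 KO label. Hmox1 fell by 0.57 there and rose by 0.47 ± 0.15 in WT, from 22846 ± 6710 to 30895 ± 2360, a difference of -1.05 ± 0.21 (limma adjusted p = 0.0064). Slc7a11, the cystine transporter that supplies glutathione synthesis, had 718 ± 138 and 664 ± 65.7 under the PD-1 KO label and rose in WT from a mean of 172 to one of 553, a difference of -1.78 ± 0.42 (adjusted p = 0.0248). The call of Slc7a11 was lost without 6 of the 12 libraries (PD-1 KO label 2 h replicates 1 and 2 and 8 h replicate 3, WT 2 h replicate 2 and WT 8 h replicates 2 and 3; adjusted p up to 0.0799). Of the 18 NRF2 genes, 13 rose in WT, beside 10.9% of all genes. The difference passed for 4, which were Hmox1, Slc7a11, Gclm and Cat, beside 0.175% of all genes with the lower change. Markers of microglia and of some other cells fell in WT. Oligodendrocyte precursor markers summed to 2689 to 4588 at 2 h and 1232 to 1419 at 8 h in WT. Of these 7 markers 6 fell there, beside 13.8% of all genes. The difference passed for 4 of 7, all higher under the PD-1 KO label, beside 1.33% of all genes. Pdgfra was among them (2.89 ± 0.52, limma adjusted p = 0.0025). Sums overlapped in WT for 8 oligodendrocyte markers (1832 to 2650 at 2 h, 1737 to 2734 at 8 h), of which 2 fell. They also overlapped for 8 ependymal markers (85.6 to 210 and 88.6 to 119), of which 0 passed. The pan-microglial markers summed to 197316 to 230542 and 148742 to 150301 in WT. Of these 15 markers 12 fell and 1 rose there, with a median log2 change of -0.47. The 10 astrocyte markers summed to 2129 to 2417 at 2 h and 1298 to 1418 at 8 h in WT, below all 6 libraries labelled PD-1 KO. In WT 4 of these 10 fell. The part of these markers in the difference between the labels was not tested.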

How the data were processed

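The deposited table gives 1 signal per gene and library for 13788 genes and 30 libraries: gene counts scaled by the authors with 1 size factor for each library, and set to 1 where lower, as read from the values, which above 1 were whole multiples of a step per library (100.0% within 0.05 of a read, up to 5000 reads). Per the submitters' processing notes, HISAT 0.1.5, Partek 6.6, R 3.0.2, DESeq2 and mm10 were used, with no roles stated; the counting program and annotation are not given in the sources used here. Reads recovered from the steps came to 4227019 to 48509985 per library, and they limit the precision of low genes.

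Genes with a signal of at least 10 in at least 3 libraries (13722) were fitted with limma 3.58.1 in R 4.3.3 on log2(signal + 1), with 1 mean for each of 10 groups, an intensity trend and Benjamini-Hochberg adjustment (threshold 0.05, 20 residual degrees of freedom). Fold changes on this scale understate the change of low genes. The 5 comparisons were 8 h against 2 h with amyloid-beta, the same without it, the same in WT, and the differences of the first from the other two. Planned fits of a count model were not made because the deposited values are not counts, and voom on the recovered reads, chosen after seeing the data, took their place.

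The libraries, the 38 gene lists (37 with tested genes; of 13 blood cell markers 0 were in the table) and the tests were chosen with earlier results of these data known. Named genes were the 15 rises and 15 falls of largest change among called genes of above-median level whose libraries did not overlap, the 5 members of largest change in each list, the 10 largest called differences, and a preset few; others are said to be picked afterwards, and the text uses part of them, and 1 called gene of the homeostatic list is not reported here. Positions came from GENCODE M21 on GRCm38 for 99.4% of genes and promoters from RefSeq on GRCm38.p6. On simulated data for the comparison of 8 h with 2 h with amyloid-beta (13745 genes), 65 of 100 genes changed 2-fold and 91 of 99 changed 4-fold were recovered, with 7 false calls among 163. The simulation drew genes independently, with the same spread in all groups and no shift of whole libraries. Its planted changes were larger than the median called log2 changes of 0.56 and -0.64. These rates therefore need not hold for the real calls.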

Additional observations from a re-analysis of the deposited data

Results flagged for a closer look

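The change from 2 h to 8 h with amyloid-beta differed between the libraries labelled PD-1 KO and those labelled WT for 207 genes (limma interaction, adjusted p under 0.05), and the values below are log2 differences, PD-1 KO label minus WT. Interferon-induced genes differed by 4.65 (Oas3), 3.75 (Mx1), 3.60 (Rsad2), 3.42 (Ifit1), 3.23 (Ifit3), 2.39 (Mx2), 1.91 (Ifi27l2a), 1.84 (Oasl2) and 1.84 (Mnda). Cytokines and chemokines differed by 2.49 (Il1b), 1.60 (Ccl4), 1.0 (Cxcl16), 0.81 (Ccl3) and 0.62 (Ccl9). The NF-kB genes Nfkbiz, Icam1 and Nfkb1 differed by 0.82, 0.67 and 0.48. Other genes of activation and survival differed by 2.58 (Cd69), 1.38 (Nlrp3), 1.08 (Cd83), 1.0 (Tlr2), 0.99 (Bcl2a1d), 0.91 (Cybb), 0.69 (Bcl2a1b) and 0.60 (Ets2). The microglial receptor gene Cx3cr1 differed by 1.29. Pdgfra (2.89), Cntn1 (1.83), Top2a (1.53) and Klhl13 (1.53), known from precursor, neural or dividing cells except the last, also had the higher change under the PD-1 KO label. Hmox1 and Slc7a11 had the lower change, by -1.05 and -1.78. Of these genes, Ccl3, Ccl9, Nfkbiz, Icam1, Nfkb1, Bcl2a1b, Ets2, Mx2, Cd69, Cybb, Ifi27l2a, Slc7a11 and Klhl13 lost the call without at least 1 of the 12 libraries, and the others kept it.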

How the results depend on the processing

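No paired analysis was possible because the titles give the groups no shared replicate numbers. With array weights the counts were 2224 (amyloid-beta, PD-1 KO label), 854 (untreated), 5430 (WT) and 1650 (difference between labels, 939 higher and 711 lower); with a minimum fold of 1.5 they were 3, 4, 131 and 9. With only the groups compared in the fit, the WT count was 1046, of which 324 were higher and 722 lower. Leaving out 1 library gave 89 to 208, 148 to 207, 1930 to 3900 and 102 to 256. The difference between amyloid-beta and untreated changes held 0 calls under every alternative run. Pdcd1, near 0, changed sign with TMM factors (0.02), array weights (0.02), pseudocount 0 (0.01) and quantile normalization (0.04), and ran from -0.49 to 0.46 (0.03, 0.46, 0.17 and 0.04 where reversed) as libraries were left out; P2ry12 ran from -0.02 to 0.18. The cause of these shifts was not tested. Of 79 called genes named in the text, 39 kept the call with every library left out, 50 kept it under every other alternative but the fold minimum, and 76 lost it under that minimum. Voom gave 280, 267, 2801 and 139 calls. Fits with edgeR and DESeq2 were not run. The lower depth at 2 h limits what could be seen in genes of few reads.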
